A study of Mus musculus with 24 samples.

Results

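The genes described here load peptides onto MHC class I molecules: H2-K1, H2-D1, B2m, Tap1, Tap2, Tapbp, Tapbpl and Nlrc5. They were taken by gene symbol, and every probe that the platform annotation assigns to 1 of the 8 genes was read, 18 of the 45281 probes on the array. Of these, 15 stood above background on at least 2 of the 24 arrays and were tested among 21568 probes kept in all. The other 3 probes, 1 each of H2-D1, B2m and Tapbpl, were above background on 0 of 24 arrays, so that no difference between groups decided whether they were kept.

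Expression was measured on Illumina bead arrays with RNA of 4 mouse lines derived from multiple myeloma. All 4 lines carry the Bcl-XL and Myc transgenes on a background of FVBN crossed with BL/6. According to the labels, 595sp and 638bm are sensitive to the proteasome inhibitor bortezomib, and the lines with the same names and the suffix VR (595sp VR, 638bm VR) are resistant. There was 1 array of each line untreated (0 h) and at 2, 8 and 16 h of bortezomib at 33 nM, and there were 2 at 24 h. The 2 lines of an arm, sensitive or resistant, served as its replicates (n = 2 lines). The labels do not say that arrays came from separate cultures, so p-values measure the spread between these samples alone. The labels do not name the promoters that drive the transgenes, nor do they say how the VR lines were made or whether a line is 1 clone. The 638bm VR line has a further limit, since the times in title and timepoint label disagree for 4 of its 6 samples. The times of the titles were used.

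A class I molecule is a polymorphic heavy chain, such as the products of H2-K1 and H2-D1, paired with beta-2 microglobulin, the product of B2m. Peptides made by the proteasome are pumped into the endoplasmic reticulum by a transporter formed of TAP1 and TAP2. Tapasin, the product of Tapbp, holds the empty class I molecule beside that transporter while a peptide is fitted, and the tapasin-related protein made from Tapbpl edits the bound peptide further on. NLRC5 is the transactivator that acts on the promoters of class I genes, as CIITA does for class II. Interferon and NF-kB signalling also raise these genes, and cells that lose them are seen less well by cytotoxic T cells. H2-K1, H2-D1, Tap1, Tap2 and Tapbp lie on chromosome 17, within the MHC, while B2m lies on chromosome 2, Tapbpl on chromosome 6 and Nlrc5 on chromosome 8.

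Promoter sequences from RefSeq (build GRCm38.p6) were used for 5 of the 8 genes, not for Tap2, Tapbpl and Nlrc5. They are shown because the members are known targets of shared regulators. Whether these sequences bear on the expression values was not tested. Capitals mark matches, on either strand, to a kappaB-like motif (GGGNNTTCC), an IRF core (AANNGAAA), a CRE half-site (TGACG) and a CCAAT box (CCAAT). Each stretch runs 5′ to 3′ on the gene's own strand, from 6 bases before the first match to 6 bases after the last match ahead of the start site, or to the end of the upstream sequence.
H2-K1 (chr17:34000334-34000464, minus strand): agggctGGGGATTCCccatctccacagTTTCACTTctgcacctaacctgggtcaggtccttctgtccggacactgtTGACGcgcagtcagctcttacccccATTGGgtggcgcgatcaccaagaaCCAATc
H2-D1 (chr17:35262917-35263051, plus strand): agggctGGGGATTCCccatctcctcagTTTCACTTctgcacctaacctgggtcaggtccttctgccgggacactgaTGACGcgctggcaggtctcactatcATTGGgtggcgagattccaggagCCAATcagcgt
B2m (chr2:122147544-122147644, plus strand): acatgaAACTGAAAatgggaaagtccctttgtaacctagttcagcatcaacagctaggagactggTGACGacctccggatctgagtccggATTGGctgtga
Tap1 (chr17:34187328-34187480, plus strand): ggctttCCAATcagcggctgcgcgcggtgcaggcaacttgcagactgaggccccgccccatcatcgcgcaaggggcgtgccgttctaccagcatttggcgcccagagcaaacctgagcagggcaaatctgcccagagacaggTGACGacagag
Tapbp (chr17:33919228-33919323, plus strand): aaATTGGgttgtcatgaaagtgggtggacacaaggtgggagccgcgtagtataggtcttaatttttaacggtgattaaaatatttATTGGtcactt

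In H2-K1 and H2-D1 all 4 motifs were found, in the same order. B2m held the IRF core, the CRE half-site and the CCAAT box, also in that order, and no match to the letters GGGNNTTCC in this window. Longer forms of a kappaB site were not searched for, so their absence from these promoters is not claimed. A further CRE half-site match in B2m lay after the start site and is not shown. H2-K1 has 2 start sites among these promoters, and the stretch of 1 is shown. For the other start site, the last CCAAT box of that stretch lies after it. Tap1 held a CCAAT box and a CRE half-site, and Tapbp held 2 CCAAT boxes. Among 32851 RefSeq promoters of the same 300 bases, 5.8% held the kappaB-like motif, 23.9% the IRF core, 20.8% the CRE half-site, 37.4% the CCAAT box and 0.14% all of these. The matches are a description of the letters and not of binding.

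The lines were read against cell type markers before the results. Of 10 plasma cell and B lineage genes read on the array, 7 (Sdc1, Xbp1, Irf4, Slamf7, Mzb1, Cd79b and Pou2af1) were above background on all 24 arrays, while Prdm1, Tnfrsf17 and Jchain were above it on 0. Of the T cell genes, Cd3g was above background on all 6 arrays of 595sp and of 595sp VR and on 0 arrays of the 638bm-named lines, and Cd3d and Cd3e were above it on 7 and 3 of 24 arrays and Cd4 and Cd8a on 0. Csf1r, a macrophage receptor, was above background on all 6 arrays of 595sp at 7.86 to 8.96 on the log2 scale and on 3, 2 and 0 of 6 in 595sp VR, 638bm and 638bm VR, where no array passed 5.92. The macrophage genes Adgre1 and Lyz2 were above background on 0 arrays. The endothelial gene Pecam1 was above background on all 24 arrays and Cdh5 and Kdr on 0, and of the stromal genes Pdgfrb passed on 1 array and Col1a1, Col1a2 and Dcn on 0. The summed macrophage markers (4 genes) reached 8.31 to 9.19 (log2 of the sum) in 595sp and 6.87 to 7.20 in the other lines, and the summed T cell markers (5 genes) 7.91 to 9.45 in 595sp, 8.86 to 10.02 in 595sp VR and 7.25 to 7.58 in the others. The erythroid gene Hba-a1 was above background on 5 of 6 arrays of 595sp and on 0 arrays of the other lines. The macrophage list, through Csf1r, thus stood high in 595sp alone, the line in which most class I loading probes were also highest. The T cell list, through Cd3g, reached higher in 595sp VR, where those probes were low, than in 595sp. Their part in the results was not tested. The SD across probes of the difference between a line's 24 h arrays was 0.19 to 0.27 in log2 units, and between 33.5 and 38.3% of probes stood above background on an array. The number of arrays limits the precision. In bulk RNA, fewer cells with a transcript and less transcript per cell cannot be told apart.

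Untreated, the resistant lines had less RNA of both subunits of the peptide transporter and of NLRC5 than the sensitive lines. Of the 2 tapasin probes tested, the brighter was lower and the other differed the opposite way without meeting the call. Tap2, Tap1, Nlrc5 and the brighter probe of Tapbp were 2.18- to 4.96-fold lower, while B2m and Tapbpl showed no difference that passed. The comparison asks how the lines differ before any drug. A probe was called where the adjusted p (Benjamini-Hochberg over all probes kept) was under 0.05 and both pairs of lines, each VR line minus its namesake, were at least 1 log2 unit apart in the same direction. By this rule 4 of the 15 member probes tested were lower and 0 were higher. Over all probes tested 3.45% were called lower and 0.468% higher. The calls of Tap1 and Tapbp did not hold with no background correction, with an offset of 50 or with the authors' processed table. The median difference was -1.08 over the 14 member probes above background in both arms, against 0.07 over all probes.

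Tap2, the transporter subunit with the largest difference among the members, was measured at 11.46 in untreated 595sp and 9.79 in untreated 638bm, and at 8.07 in 595sp VR and 8.56 in 638bm VR (log2 signal, 1 array each). Both resistant lines were below both sensitive lines. Such an order of single untreated arrays, given here and for the next genes, is a description, and its share over all probes was not counted. The mean of the pairs was -2.31 ± 0.55 (log2 difference ± SE, n = 2 pairs, limma, adjusted p = 0.0242), a level 4.96-fold lower, with -3.39 in the 595sp pair and -1.23 in the 638bm pair.

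Tap1, the partner subunit, stood at 9.57 in 595sp and 8.06 in 638bm against 6.90 in 595sp VR and 6.98 in 638bm VR. Here too the arms did not overlap, and the resistant lines lay close together. The difference was -1.87 ± 0.44 (n = 2 pairs, adjusted p = 0.0233), with -2.67 and -1.08 in the pairs.

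Nlrc5, the transactivator, was at 8.93 in 595sp and 8.34 in 638bm, and at 6.88 in 595sp VR and 7.15 in 638bm VR. Its difference of -1.62 ± 0.41 (n = 2 pairs, adjusted p = 0.0319) was made of -2.05 and -1.19 in the pairs. Both resistant lines were below both sensitive lines for this gene too.

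Tapbp, read by probe ILMN_1226819, was at 8.67 and 8.49 in untreated 595sp and 638bm and at 7.46 and 7.45 in their VR lines. Of the 4 genes it had the pairs most alike, at -1.21 and -1.04, with a mean of -1.12 ± 0.20 (n = 2 pairs, adjusted p = 0.00757).

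**Figure D1:**
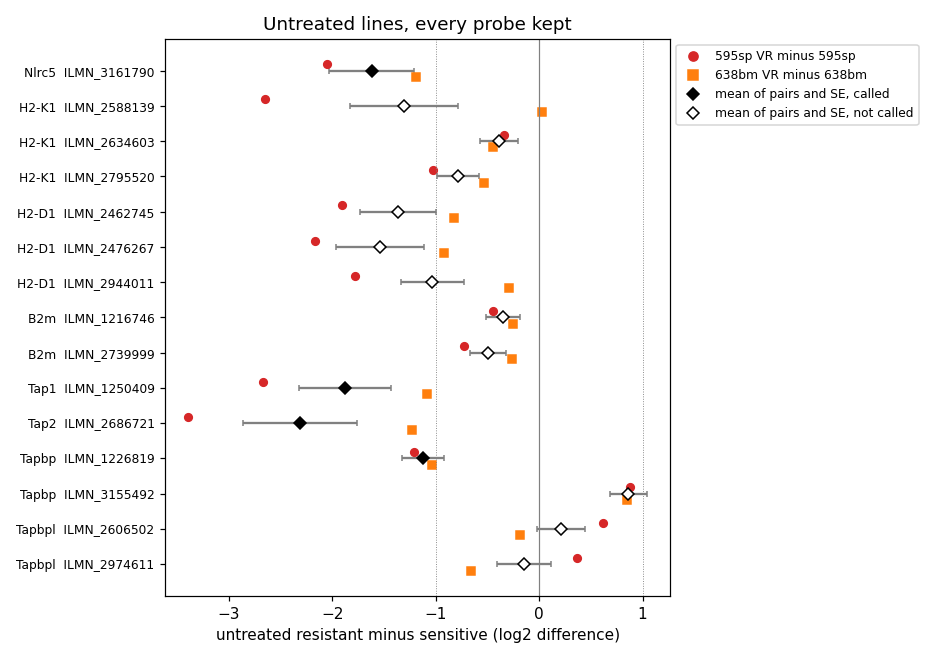
Untreated resistant minus sensitive difference (log2, x axis) of the 15 probes kept, with the 595sp pair (circle), the 638bm pair (square) and the mean of the pairs with its SE (diamond, filled where called). Dotted lines mark 1 log2 unit. Tap1, Tap2, Nlrc5 and probe ILMN_1226819 of Tapbp lie at or below -1 in both pairs, and the 595sp pair lies further from 0 than the 638bm pair for the H2-D1 and Tap probes.

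No heavy chain probe met both parts of the call. H2-D1 was read by 3 probes, with differences of -1.36 ± 0.36 (ILMN_2462745, adjusted p = 0.0373), -1.54 ± 0.43 (ILMN_2476267, adjusted p = 0.0443) and -1.03 ± 0.30 (ILMN_2944011, adjusted p = 0.0551). In the 638bm pair these probes differed by only -0.82, -0.92 and -0.29, under the 1 log2 unit the call asks for. The H2-K1 probe ILMN_2795520 differed by -0.78 ± 0.20 (adjusted p = 0.0347), with -1.03 and -0.53 in the pairs. Class I genes are similar in sequence and differ between mouse strains, and whether these probes read other class I transcripts or strain variants was not tested.

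H2-K1 probe ILMN_2588139, the brightest of that gene, split the resistant lines. It was at 6.74 in untreated 595sp VR, and at 9.39, 9.32 and 9.36 in 595sp, 638bm and 638bm VR. The 595sp pair differed by -2.65 and the 638bm pair by 0.03, and the mean of -1.31 ± 0.52 did not pass (n = 2 pairs, adjusted p = 0.146). At 2, 8, 16 and 24 h the 595sp pair differed by less on this probe, by -1.45, -1.36, -1.41 and -1.30. The 638bm pair then differed by -0.12, -0.40, -0.48 and -0.54. Probe ILMN_2634603 of the same gene was above background on 5 of 24 arrays, 2 of 595sp and 3 of 638bm. It was kept through the sensitive lines alone, so its difference is not read.

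B2m, the light chain that every class I molecule needs, differed by less. Probe ILMN_2739999 was at 14.03 and 13.48 in 595sp and 638bm and at 13.30 and 13.22 in their VR lines, a difference of -0.49 ± 0.17 (n = 2 pairs, adjusted p = 0.103). Probe ILMN_1216746 differed by -0.35 ± 0.16 (adjusted p = 0.217). The interval of the first probe ran from -0.87 to -0.11 (95%), so that a difference the size of that of Tap2 lay outside it. Tapbpl, the editing homologue of tapasin, had pairs of opposite sign on both probes. Its probe ILMN_2974611 differed by -0.15 ± 0.26 (adjusted p = 0.776), with 0.37 in the 595sp pair and -0.66 in the 638bm pair, and ILMN_2606502 by 0.21 ± 0.23 (adjusted p = 0.622).

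Each line has 1 untreated array, and the spread in this comparison comes mostly from other times of the same lines. The SE understates the error where the pairs do not match. A candidate batch, blocks of 6 columns of the deposited table, holds the untreated 595sp pair in 1 block, and the values of that pair above are thus within a block. The untreated 638bm pair spans 2 blocks. So does the 595sp pair at 2, 8 and 16 h and on the first 24 h arrays, so its gaps there are not within a block. At 24 h the second arrays of all 4 lines share a block. There the pairs differed by -1.56 and -1.04 for Nlrc5, -1.69 and -0.54 for Tap2, -0.99 and -0.37 for Tap1, -1.11 and -1.07 for H2-D1 (ILMN_2462745), and -0.09 and 0.003 for Tapbp (ILMN_1226819). Within that block, at 24 h of bortezomib, Tapbp thus showed almost no gap in either pair on this probe. Averaged over both 24 h arrays of a line its gaps were -0.22 and -0.08. Its untreated gap within a block is known for the 595sp pair alone, at -1.21.

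Over all times the arms stayed apart, with the resistant lines lower, on every probe tested of 4 of the 8 genes. The 10 values of each arm came from 2 lines and 5 times, with 24 h arrays averaged. For Tap1, Tap2, Nlrc5, the 3 H2-D1 probes and H2-K1 probe ILMN_2795520, every resistant value was below every sensitive value. These were 7 of the 15 member probes tested. The same held for 2.08% of all probes tested. Tap2 ranged from 9.03 to 11.46 in the sensitive lines (median 10.07) and from 8.07 to 8.56 in the resistant lines (median 8.28). Nlrc5 ranged from 7.67 to 9.75 (median 8.38) and from 6.52 to 7.15 (median 6.73). H2-D1 probe ILMN_2462745 ranged from 12.62 to 14.03 (median 13.11) and from 11.53 to 11.95 (median 11.69). The resistant lines were thus close to each other and the sensitive lines were spread. The values of B2m, Tapbpl, Tapbp probe ILMN_1226819 and the other H2-K1 probes overlapped between arms.

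The order of the lines was alike for several members. Averaged over the 5 times, Tap2 stood at 10.99 ± 0.52 (SD over times) in 595sp, 9.52 ± 0.39 in 638bm, 8.33 ± 0.20 in 638bm VR and 8.22 ± 0.13 in 595sp VR. The VR lines were within their spread of each other. Nlrc5 stood at 9.03 ± 0.68, 8.14 ± 0.29, 6.81 ± 0.22 and 6.71 ± 0.16 in the same order, and H2-D1 (ILMN_2462745) at 13.77 ± 0.33, 12.78 ± 0.14, 11.70 ± 0.12 and 11.73 ± 0.20, again with the resistant lines inside their spread. B2m (ILMN_2739999) stood at 14.04 ± 0.07 in 595sp, 13.57 ± 0.13 in 638bm, 13.38 ± 0.09 in 595sp VR and 13.04 ± 0.14 in 638bm VR. Its VR lines had the same order as for H2-D1 but were further apart than their spread.

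**Figure D2:**
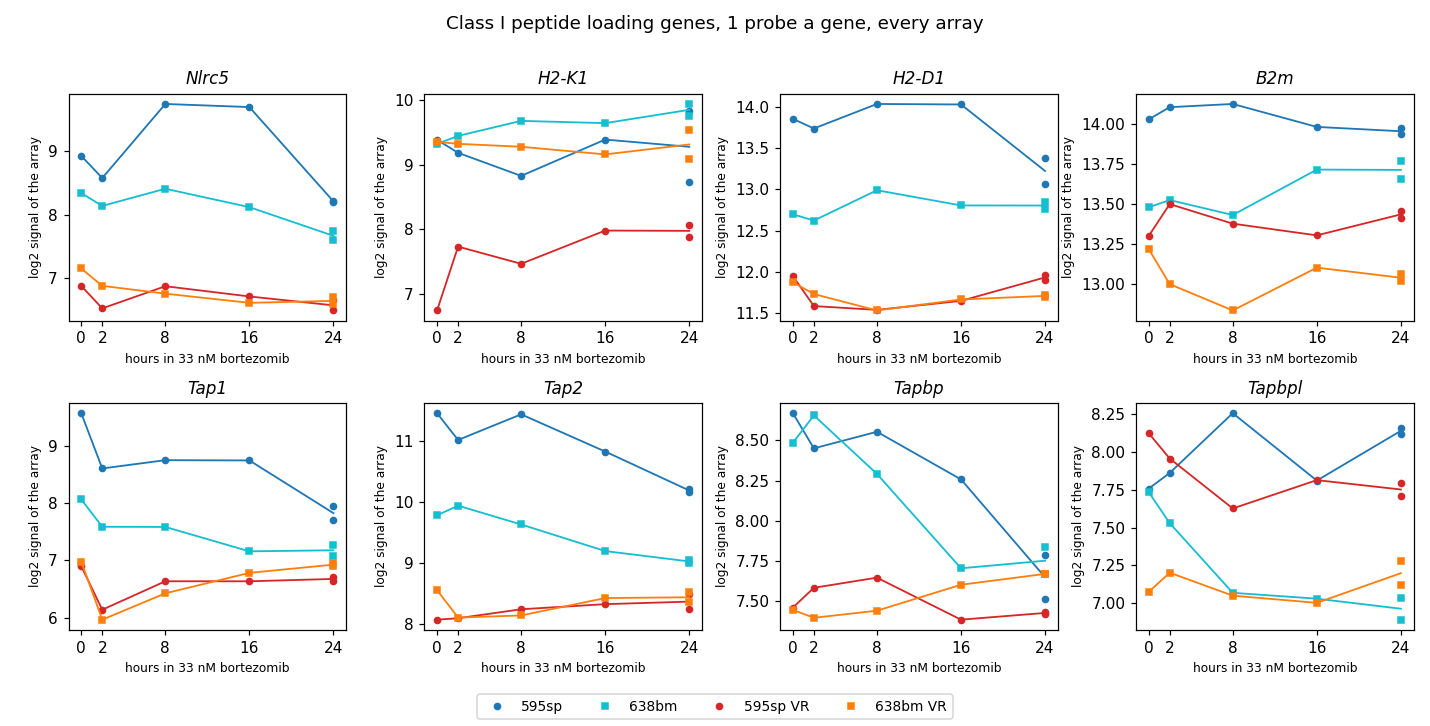
Log2 signal (y axis) against hours in 33 nM bortezomib (x axis) for the brightest probe of each of the 8 genes. Points are arrays, lines join the values of a cell line (mean of both arrays at 24 h), and y axes differ between panels. For Tap1, Tap2, Nlrc5 and H2-D1 both resistant lines lie below both sensitive lines at every time, and Tap1, Tap2 and Tapbp (probe ILMN_1226819) fall in the sensitive lines by 24 h.

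Tapbp was read by another probe, ILMN_3155492, that went the other way. The platform annotation ties it to another RefSeq transcript of the gene than ILMN_1226819. It stood above background on 22 of 24 arrays and was higher in the untreated resistant lines by 0.86 ± 0.18 (n = 2 pairs, adjusted p = 0.0136), with 0.88 and 0.85 in the pairs. It missed the 1 log2 unit the call asks for. Its values ran from 5.25 to 6.09 in the sensitive and from 6.28 to 6.95 in the resistant lines with no overlap, in a direction held by 2.06% of all probes. Across the 20 values the probes of Tapbp correlated at r = -0.77, as a description of points that share 4 lines. The direction for Tapbp in untreated lines thus depends on the probe. In the same values the 3 H2-D1 probes correlated at 0.92 to 0.98, the B2m probes at 0.96, the Tapbpl probes at 0.68 and the 3 H2-K1 probes at 0.41 to 0.72. These values include the differences between lines. With each line centred on its own mean, r was 0.20 to 0.63 for H2-D1, 0.50 for B2m, 0.49 for Tapbpl, -0.27 to 0.38 for H2-K1 and -0.21 for Tapbp.

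In bortezomib the sensitive lines had less RNA of both transporter subunits by 24 h and a lower signal on 1 of the 2 tapasin probes, and the heavy chains and B2m showed no change that passed. The question was how expression moves with time in each arm. At 24 h Tap1, Tap2 and Tapbp (ILMN_1226819) were lower, 3 of the 15 member probes tested, where 9.76% of all probes were lower and 10.6% higher. In a set this small, that share beside such a background is not read as a feature of the set. Without the cell line in the model 0 member probes passed. Earlier, Tap1 was lower at 16 h, where 3.25% of all probes were lower, and 0 member probes passed at 2 h and at 8 h (limma), where 0.051% and 4.13% of all probes passed in either direction. At an unadjusted p under 0.05, 1 member probe passed at 2 h and 1 at 8 h.

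Tap1 was at 9.57 in untreated 595sp, then at 8.60, 8.75 and 8.74 at 2, 8 and 16 h and at 7.95 and 7.70 on the 24 h arrays. In 638bm it went from 8.06 to 7.59, 7.58 and 7.16 and then to 7.08 and 7.27. All treated arrays of both lines were below the untreated array of that line. The mean change was -0.86 ± 0.21 at 16 h (n = 2 lines, adjusted p = 0.0203) and -1.31 ± 0.21 at 24 h (adjusted p = 0.000483), which is 2.49-fold lower, with -1.74 in 595sp and -0.89 in 638bm. The 16 h call was lost without 638bm, 595sp VR or 638bm VR in the fit (adjusted p = 0.0621, 0.101 and 0.101). The 24 h call held without any 1 of the 4 lines, at -0.89 without 595sp and -1.74 without 638bm.

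Tap2 moved later. In 595sp it was at 11.46 untreated, 11.02, 11.44 and 10.83 at 2, 8 and 16 h, and 10.21 and 10.18 at 24 h, and in 638bm at 9.79, 9.94, 9.63, 9.20, 9.0 and 9.06. Both lines were at their lowest at 24 h. The change at 24 h was -1.01 ± 0.20 (n = 2 lines, adjusted p = 0.00215), after -0.61 ± 0.20 at 16 h, which did not pass (adjusted p = 0.0793).

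Tapbp followed the same course on probe ILMN_1226819. In 595sp it was at 8.67, 8.45, 8.55 and 8.26 up to 16 h and at 7.78 and 7.51 at 24 h, and in 638bm at 8.49, 8.65, 8.29, 7.70, 7.84 and 7.67. Its change was -0.88 ± 0.19 at 24 h (n = 2 lines, adjusted p = 0.00452), or -0.73 with an adjusted p of 0.0543 without 595sp. The other Tapbp probe changed by 0.27 in 595sp and -0.02 in 638bm at that time.

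Nlrc5 took a different path in 595sp. It was at 8.93 untreated, then at 8.58, 9.75 and 9.70 (2, 8 and 16 h) and at 8.21 on each 24 h array, while in 638bm it was at 8.34, 8.14, 8.41, 8.12, 7.60 and 7.74. Only 595sp was above its untreated level by more than 0.7 at 8 and 16 h (0.82 and 0.77), and both lines were below it at 24 h. The change at 24 h was -0.70 ± 0.24 (n = 2 lines) and missed the threshold (adjusted p = 0.054).

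The first arrays of 595sp at all times, the untreated one included, lie in 1 block of table columns. Within that block Tap1 changed by -1.62, Tap2 by -1.25, Tapbp by -0.88 and Nlrc5 by -0.71 at 24 h. With the blocks as a covariate the sensitive lines kept the calls of these first 3 genes at 24 h. That fit took both 24 h arrays of a line as separate values, in place of their mean. The untreated array of 595sp VR lies in another block than all of its treated arrays. Within that line, change from 0 h and block cannot be told apart.

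In the resistant lines 0 member probes passed at 2, 8, 16 or 24 h (limma), where 0.876%, 3.1%, 1.04% and 1.27% of all probes passed in either direction. The counts at an unadjusted p under 0.05 were 1, 0, 0 and 1 at these times. Tap1 came nearest, at 2 h. It went from 6.90 untreated to 6.14, 6.64, 6.64, 6.64 and 6.72 (the last pair at 24 h) in 595sp VR, and from 6.98 to 5.97, 6.43, 6.78, 6.95 and 6.91 in 638bm VR. Both lines were lowest at 2 h, and at 24 h, by the times of the titles, they stood -0.22 and -0.05 from the untreated level. The change at 2 h was -0.89 ± 0.21 (n = 2 lines, adjusted p = 0.0556). It passed in 4 of 14 settings, with the first 24 h arrays alone (adjusted p = 0.0442) and with other filters or 1 probe a gene (0.049 to 0.05), and also without 595sp or 638bm in the fit (0.0186 each). The 638bm VR array at 5.97 is one of those with disputed times, 2 h in its title and 24 h in its timepoint label. With the times of that label the change of Tap1 in the resistant lines was -0.66 at 2 h (adjusted p = 0.148) and -0.37 at 24 h (adjusted p = 0.616), in place of -0.14 at 24 h with the times of the titles.

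**Figure D3:**
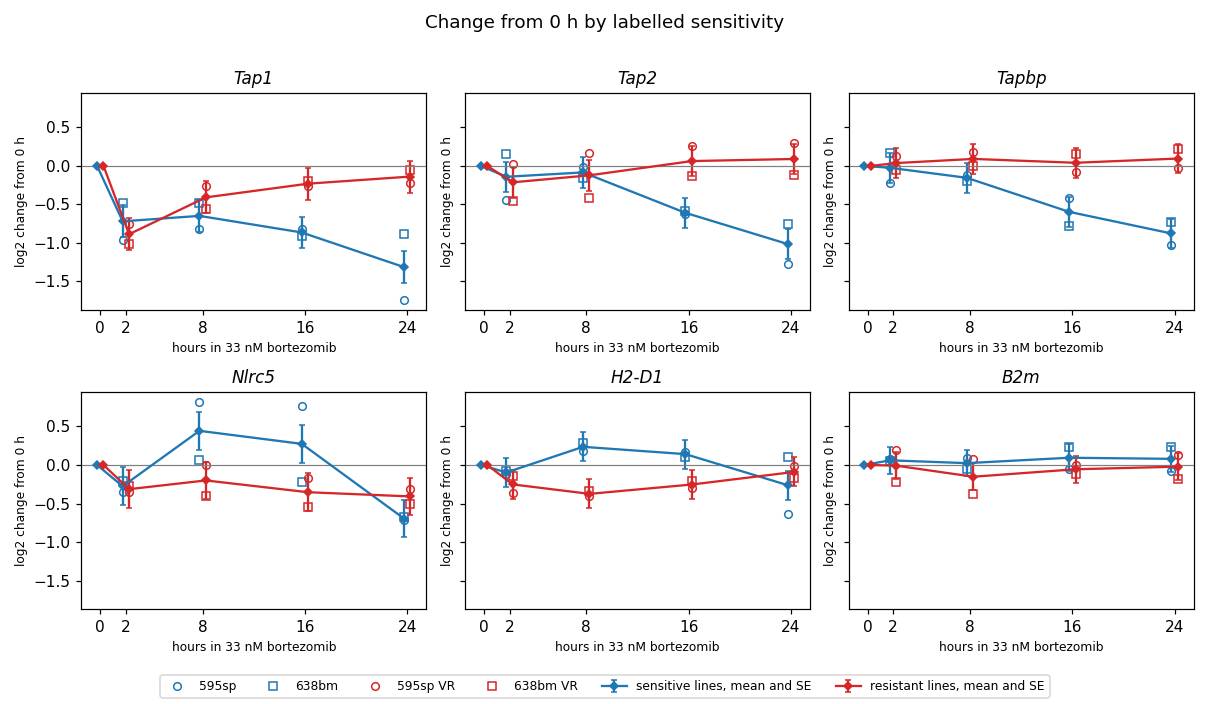
Log2 change from 0 h (y axis) against hours in 33 nM bortezomib (x axis) for 6 genes, with the mean of the 2 sensitive and of the 2 resistant lines and its SE (diamonds) and each line (open symbols). Tap1, Tap2 and Tapbp (probe ILMN_1226819) end at -1.31, -1.01 and -0.88 in the sensitive lines at 24 h, and the means of the resistant lines for these probes end within 0.15 of 0, with single lines from -0.22 to 0.30.

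Taking all 4 lines together, Tap1 was the member that was lower at every time. The mean change was -0.80 ± 0.15 at 2 h (n = 4 lines, adjusted p = 0.00834), -0.53 ± 0.15 at 8 h (adjusted p = 0.0298), -0.55 ± 0.15 at 16 h (adjusted p = 0.0304) and -0.73 ± 0.15 at 24 h (adjusted p = 0.00296). At 2 h it changed by -0.96 in 595sp, -0.48 in 638bm, -0.76 in 595sp VR and -1.01 in 638bm VR. For all of these lines but 595sp VR the 0 h and 2 h arrays lie in the same block of columns. Of all probes 1.76%, 5.98%, 4.05% and 8.56% were lower at 2, 8, 16 and 24 h, and 9.49% were higher at 24 h. Without 595sp VR or 638bm VR the Tap1 calls were lost at every time, with adjusted p = 0.136 and 0.312 at 2 h, 0.176 and 0.339 at 8 h, 0.266 and 0.288 at 16 h, and 0.0931 and 0.0728 at 24 h. The 8 h call was also lost without 595sp (adjusted p = 0.0619). The changes themselves stayed between -0.94 and -0.44. At 24 h Tap2 (-0.46 ± 0.14, adjusted p = 0.031) and Nlrc5 (-0.55 ± 0.17, adjusted p = 0.0356) passed as well. Both of these calls were lost without 595sp VR (adjusted p = 0.129 and 0.203) or 638bm VR (0.33 and 0.29), and that of Tap2 also without 595sp (0.136). Tap2 also missed the threshold with median scaling (adjusted p = 0.103) and with the second 24 h arrays alone (0.0608). Nlrc5 passed in 8 of 14 settings and missed it with no background correction and with the authors' processed table (0.0547 each), with an offset of 50 (0.0587), with the second 24 h arrays alone (0.0594), with column blocks (0.0661) and without the cell line in the model (0.65). The change of Nlrc5 was of one sign in all 4 lines, from -0.31 to -0.72.

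The difference of the responses was tested directly, as resistant minus sensitive change. At 2, 8 and 16 h the share of all probes that passed was 0, and at 24 h it was 0.997%, with 0 of the member probes among them at any time (limma). At an unadjusted p under 0.05, 0, 1, 3 and 3 member probes passed at 2, 8, 16 and 24 h. At 24 h the difference was 1.18 ± 0.29 for Tap1 (adjusted p = 0.067), 1.10 ± 0.28 for Tap2 (adjusted p = 0.0704) and 0.97 ± 0.27 for Tapbp (adjusted p = 0.0924). Their intervals ran from 0.55 to 1.80, from 0.51 to 1.70 and from 0.40 to 1.55 (95%, not adjusted). Without 638bm in the fit these differences passed, at 1.60, 1.36 and 1.12 (adjusted p = 0.00544, 0.0133 and 0.0312), and with median scaling those of Tap1 and Tap2 did (adjusted p = 0.0364 and 0.0442), as did that of Tap1 with column blocks (0.0412). The fit with column blocks took both 24 h arrays of a line as separate values. With all lines, a fall in the sensitive lines that differs from the resistant lines was thus not shown for these genes by the test of the difference.

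The gap between each VR line and its namesake narrowed for the genes that fell. In the 595sp pair Tap2 was -3.39 apart untreated and -1.83 at 24 h, Tap1 -2.67 and -1.15, and Tapbp (ILMN_1226819) -1.21 and -0.22. In the 638bm pair the same genes were -1.23 and -0.59, -1.08 and -0.25, and -1.04 and -0.08 apart. On this probe Tapbp ended near the same level in all 4 lines, at 7.42 to 7.84 on the 24 h arrays. Nlrc5 went from -2.05 untreated to -1.64 at 24 h in the 595sp pair and from -1.19 to -1.03 in the 638bm pair. H2-D1 (ILMN_2462745) went from -1.90 to -1.29 and from -0.82 to -1.09 in the same pairs. The change of these gaps is the difference of responses above, of which 0 passed.

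**Figure D4:**
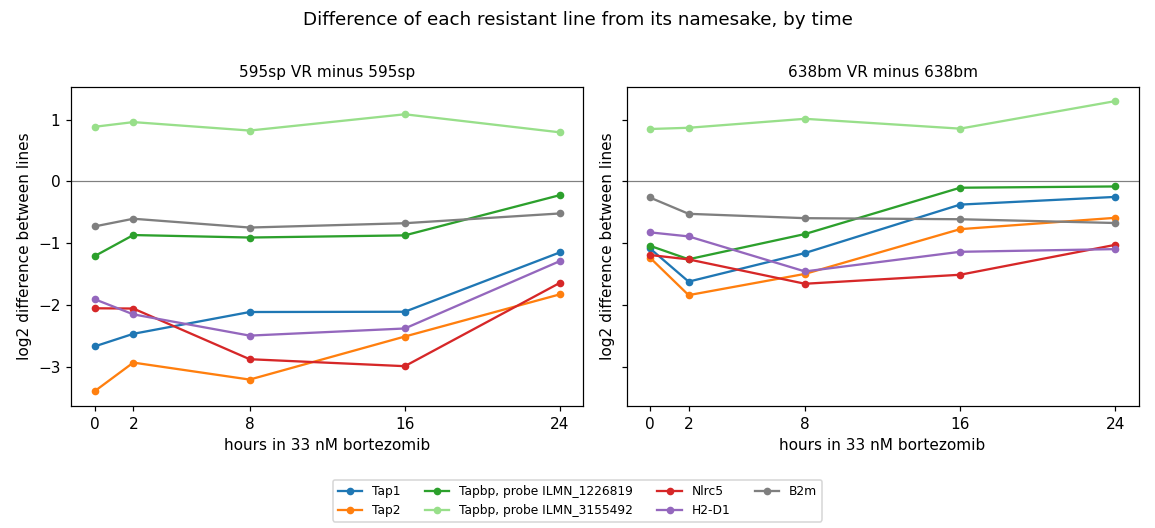
Log2 difference of 595sp VR from 595sp (left) and of 638bm VR from 638bm (right) on the y axis, against hours in 33 nM bortezomib. Each line is 1 probe. Tap1, Tap2 and Tapbp probe ILMN_1226819 lie closer to 0 at 24 h than untreated in both pairs. In the 595sp pair Tap2 is still at -1.83 at 24 h, further from 0 than Nlrc5 at -1.64. All of these probes, H2-D1 and B2m stay below 0, and Tapbp probe ILMN_3155492 stays above it.

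With all lines in the fit H2-K1, H2-D1, B2m and Tapbpl passed at no time in either arm. H2-D1 probe ILMN_2462745 changed by -0.26 ± 0.19 at 24 h in the sensitive lines (n = 2 lines, adjusted p = 0.369), with -0.63 in 595sp and 0.11 in 638bm. Without 638bm this probe passed, as did Nlrc5 and another H2-D1 probe, so that 595sp alone showed 6 member probes lower at 24 h, in a test that takes its spread from the resistant lines. Tapbpl probe ILMN_2974611 went opposite ways in the sensitive lines at 24 h, by 0.38 in 595sp and -0.77 in 638bm. Without 595sp it passed as lower in the sensitive lines (adjusted p = 0.0416) and over the other lines together (-0.45, adjusted p = 0.0451). B2m (ILMN_2739999) changed by 0.08 ± 0.17 (adjusted p = 0.806), with an interval from -0.28 to 0.44 (95%). H2-K1 (ILMN_2588139) changed by 0.21 ± 0.27 (adjusted p = 0.654), and both 24 h arrays of 595sp differed by 1.10 on that probe. That gap between repeat arrays was wider than any change of the probe in the sensitive lines. In 595sp VR the probe stood 0.99, 0.72, 1.24 and 1.23 above its untreated array at 2, 8, 16 and 24 h. That untreated array lies in another block of table columns than the treated ones, so time and block cannot be told apart there. In 638bm VR the probe changed by -0.19 to -0.03 at these times. The mean change of the resistant lines at 24 h did not pass (0.60 ± 0.27, limma, adjusted p = 0.374). With the second 24 h arrays alone the probe passed as higher over 4 lines (0.60, adjusted p = 0.0356).

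Members moved together in part. With each line centred on its own mean, Tap2 and Tapbp correlated at r = 0.89 over the 20 values, Tap1 and Tap2 at 0.79, and Tap1 and Tapbp at 0.69, while B2m and Tap1 were at -0.05 and B2m and Tap2 at 0.04. Nlrc5 was nearest to H2-D1, at 0.69. These are descriptions of 20 values that share lines, times and arrays. Among 10615 genes compared in the same way, those most like Tap1 were Slc43a1, Chst12 and Snx14 (r = 0.91 each), and those most like Tap2 were Polrmt (0.94), Zdhhc13 (0.93) and Ly9 (0.92). Tapbp was most like Cox6a1 (0.95), Zdhhc13 (0.94) and Lbr (0.94), and Nlrc5 was most like Dop1b (0.88), Akap9 (0.87) and Dock2 (0.87). For H2-D1 the nearest were Fastk (0.87), Zmiz2 (0.85) and Cul9 (0.83), for H2-K1 Cct5 (0.83), Zfp607a (0.80) and Actr6 (0.80), for B2m Olfr1006 (0.86), Epb41l4a (0.76) and Rint1 (0.74), and for Tapbpl Atp5j (0.86), Snrpf (0.86) and Epha2 (0.84).

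Other genes of the pathway were read from 7 lists. Among glycoprotein folding partners of the heavy chain, 5 of 7 genes were tested. In the untreated comparison 0 were higher and 2 lower, where 3.45% of all probes were, Ganab (-1.59 ± 0.25, adjusted p = 0.0043) and Prkcsh (-1.16 ± 0.20, adjusted p = 0.00658), the subunits of glucosidase II, which trims the glycan that calreticulin reads. Their median was -1.11, against 0.07 over all probes. Over all 4 lines at 8 h 3 were higher, where 4.96% of all probes were: Hspa5, the chaperone that folds newly made chains (0.96 ± 0.13, adjusted p = 0.000362), Pdia3, a disulfide isomerase of the loading complex (0.84 ± 0.16, adjusted p = 0.00298), and Calr, which encodes calreticulin (0.67 ± 0.20, n = 4 lines, adjusted p = 0.0389). The median of the list was then 0.67, against 0.01 over all probes. In the sensitive lines at 24 h 3 were lower, where 9.76% of all probes were: Ganab (-1.57 ± 0.19, adjusted p = 8.05e-05), Calr (-0.99 ± 0.28, adjusted p = 0.0195) and Prkcsh (-0.63 ± 0.19, adjusted p = 0.0313). Calr was thus above its untreated level over 4 lines at 8 h and below it in the sensitive lines at 24 h. At 2 h Hspa5 alone of the list was higher over all 4 lines, by 0.72 ± 0.13 (n = 4 lines, adjusted p = 0.0092), where 1.36% of all probes were.

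Among genes that make and trim the peptides, 9 of 12 were tested. Untreated, 1 was higher, where 0.468% of all probes were, the peptidase Thop1 (1.51 ± 0.29, adjusted p = 0.00966), and 0 were lower. At 24 h in the sensitive lines 2 were lower, the immunoproteasome subunits Psmb8 (-0.83 ± 0.19, adjusted p = 0.00543) and Psmb9 (-0.55 ± 0.18, adjusted p = 0.0374), and 1 was higher, the peptidase Tpp2 (0.70 ± 0.18, adjusted p = 0.0109). With 9.76% of all probes lower and 10.6% higher in that comparison, these counts are not read as a feature of the list. Psmb5 (the catalytic subunit bound by bortezomib) was higher over all 4 lines at 24 h by 0.74 ± 0.16 (n = 4 lines, adjusted p = 0.00468) and did not pass in the untreated comparison (0.45 ± 0.30, adjusted p = 0.389).

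Of the other class I and class I-like genes, 12 of 23 were tested. Untreated, 2 were lower in the resistant lines, where 3.45% of all probes were, H2-M3 (-2.06 ± 0.32, adjusted p = 0.00454), which presents formylated peptides, and H2-Q8 (-1.65 ± 0.24, adjusted p = 0.00334), and 0 were higher. In the sensitive lines at 24 h 1 was lower, H2-T23 (-0.74 ± 0.21, adjusted p = 0.0192), which encodes the Qa-1 heavy chain, a share no larger than the 9.76% over all probes.

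Of the factors that act on class I promoters, 12 of 14 were tested. In the sensitive lines at 24 h 7 were higher and 0 lower, where 10.6% of all probes were higher, among them the NF-kB subunits Relb (1.36 ± 0.29, adjusted p = 0.00386) and Rela (0.93 ± 0.20, adjusted p = 0.0043), the CCAAT-box factor Nfyc (0.68 ± 0.16, adjusted p = 0.0082) and the RFX subunit Rfxap (0.64 ± 0.16, adjusted p = 0.0105). The median of the list was 0.60, against 0.03 over all probes. In the resistant lines at 24 h the median was 0.12, against 0.01 over all probes, and 0 factors passed (limma), with 1 at an unadjusted p under 0.05, Relb (0.81, adjusted p = 0.225). Untreated, 1 was higher in the resistant lines, where 0.468% of all probes were, Rfxap (1.21 ± 0.24, adjusted p = 0.0104), and 0 were lower. Of the genes of interferon signalling, 10 of 12 were tested. Untreated, 0 passed, where 3.45% of all probes were lower and 0.468% higher. In the sensitive lines at 24 h 1 was higher, the kinase Jak2 (0.97 ± 0.17, adjusted p = 0.0012), a share no larger than the 10.6% over all probes.

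Of the MHC class II genes, loaded with peptide by another route, all 11 listed were tested. In the sensitive lines at 24 h 9 of 11 were lower, where 9.76% of all probes were, the peptide editor gene H2-DMa most clearly (-1.90 ± 0.18, adjusted p = 1.43e-05). In the resistant lines 5 were, where 0.668% of all probes were. Over all 4 lines at 2 h, 2 of 11 were lower, where 1.76% of all probes were. Ciita, the class II transactivator related to Nlrc5, was among them (log2 change -0.96 ± 0.14, n = 4 lines, limma, adjusted p = 0.0019). Untreated, 3 of 11 were lower in the resistant lines, where 3.45% of all probes were, H2-DMb2 (-1.79 ± 0.23, adjusted p = 0.00285), H2-DMb1 (-1.45 ± 0.23, adjusted p = 0.0048) and H2-DMa (-1.58 ± 0.25, adjusted p = 0.00503).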

How the data were processed

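Biotin-labelled RNA of 24 samples was hybridised to Illumina mouse bead arrays, per the labels' protocols. The authors deposited a table of average probe signals, intensity values on a linear scale with no normalization, per the file headers, for 45281 probes. A deposited table of processed intensity values (array medians 64.37 to 64.38) served as an alternative. The files hold no detection p-values, so a planned step that needs them was replaced.

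Signals were corrected with normexp (offset 16), quantile normalized and put on the log2 scale (limma 3.58.1, R 4.3.3), since the authors deposited no log2 values. The offset makes changes of dim probes smaller. A probe was above background if it passed the mode plus 2.326 SDs (log2 signals, SD from mirroring the lower side), and it was kept if that held on at least 2 arrays. The 24 h arrays of a line were averaged, which left 20 values, except in the fit with column blocks, which took every array. Changes were fitted per probe with lmFit and eBayes (cell line and sensitivity by time, 8 residual degrees of freedom), and untreated lines with origin and sensitivity by time (9 residual), with Benjamini-Hochberg adjustment over 21568 probes. Line was a block because each line was followed over time. The gap between both lines of an arm correlated across times (sensitive r = 0.757 to 0.896, resistant 0.800 to 0.906).

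Of the probes, 34885 had 1 gene symbol in the platform annotation, 18 had several and 10378 had none. Members and lists were chosen with earlier results of these data known. All member probes are accounted for. By rule, up to 4 members of a list with the smallest p that passed in a comparison could be named, and for likeness the 3 genes with the highest r over line-centred values. Scanner files were not analysed here. Alternatives changed background correction, offset, normalization, value table, filter, probes per gene, line block, times of 638bm VR, 24 h arrays, column blocks, trend and the lines included.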

Additional observations from a re-analysis of the deposited data

How the results depend on the processing

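With 13 alternative settings and 4 that leave out a line, 0 of 150 results of single member probes changed direction where a call was made. Results called in neither the main nor the alternative setting were not counted as changed. Some of those did change sign, such as H2-K1 probe ILMN_2588139 over 4 lines at 8 h, which ran from -0.17 to 0.11. The 4 untreated calls became 2 (Nlrc5 and Tap2) with no background correction, with an offset of 50 and with the authors' processed table, and 1 (Tapbp) without the cell line in the model. Without the line, which pairs the samples, the calls at 2, 8, 16 and 24 h over 4 lines and at 16 and 24 h in the sensitive lines all became 0. The Tap1 call at 8 h over 4 lines also became 0 with the times of the timepoint label and with column blocks, and that at 16 h with the second 24 h arrays alone and with column blocks. The cause was not tested. Leaving out each line gave 0 to 1 calls over 4 lines at 2, 8 and 16 h, 0 to 4 at 24 h, 0 to 1 in the sensitive lines at 16 h and 3 to 6 at 24 h, and 0 in the resistant lines at 24 h. Tap1 and Tap2 at 24 h in the sensitive lines passed in 13 of 14 settings, the main one included. The difference of responses at 24 h passed for Tap1 in 2 of 14 settings and for Tap2 in 1. With median scaling, calls over all probes were split 359 higher to 116 lower in the resistant lines at 24 h (130 to 144 with quantile normalization), 386 to 862 in the sensitive lines at 16 h (702 to 702), 760 to 1433 over 4 lines at 8 h (1069 to 1290) and 374 to 30 for the difference at 24 h (170 to 45, or 198 to 106 with no background correction). Calls in the untreated comparison need both pairs, so leaving out a line was not run there, nor were column blocks. Probes near background have changes that the offset makes smaller.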
